A study of Danio rerio with 9 samples.

Results

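Sphingolipid synthesis and turnover genes were followed in the adult zebrafish ventricle, by RNA-seq on fresh tissue of fish that were 5 months old. The members were the rows of the count table whose gene symbol matched a list of 54 symbols, which left out lysosomal hydrolases and sphingosine phosphate receptors; 44 of the 16575 genes in the table met this rule and stood for 43 of the symbols. The groups were *vegfc*(+/+);*vegfd*(+/+) controls, with 5 libraries numbered 1 to 5, and *vegfc*(hy-/-);*vegfd*(-/-) mutants, with 4 libraries numbered 6 to 9. Mutants carried the hypomorphic *vegfc* allele hu5055 and the null *vegfd* allele uq9bh, which leave fish viable with few lymphatic vessels, so that *vegfc* function was reduced and not lost. The study outcrossed the mutants to a line whose lymphatic vessels carry a DsRed reporter under the *lyve1b* promoter, and which of the sequenced fish carried the reporter is not given in the sources used here. Whether controls and mutants were siblings from the same crosses is not stated either, and the effect of the alleles and that of line background cannot be told apart. Nothing in the labels says that each library came from a separate fish, so p-values measure the spread between these libraries.

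Control libraries totalled 23302636 to 33407859 counts and mutant libraries 27320575 to 33496006. Expression is given below as CPM, which divides each count by a library total adjusted with edgeR's TMM factors. CPM does not allow for transcript length, so levels were compared between libraries and not between genes. The targeted gene *vegfd* (ENSDARG00000056624) stood at 2.60 ± 1.25 CPM in controls (SD, n = 5) and 0.368 ± 0.214 CPM in mutants (SD, n = 4), a log2 fold change of -2.82 ± 0.51 (SE) with an edgeR adjusted p of 0.0195. The hypomorphic *vegfc* gene (ENSDARG00000069640) was at 2.99 ± 1.71 CPM in controls and 3.80 ± 1.86 CPM in mutants, with an adjusted p of 0.719. The summed level of 12 cardiomyocyte markers lay between 92936 and 129423 CPM in every library, so heart muscle RNA was present throughout. Because the libraries came from bulk tissue, fewer cells of a type and less RNA per cell cannot be told apart.

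Sphingolipids are membrane lipids built on a long-chain base that serine palmitoyltransferase makes from serine and palmitoyl-CoA. Ceramide synthases attach a fatty acid to that base, and the resulting ceramide is turned into sphingomyelin, into glycosphingolipids or into ceramide 1-phosphate. Sphingomyelinases return sphingomyelin to ceramide, and ceramidases release the free base from ceramide. Heart muscle uses the same set of reactions to keep its membranes and its ceramide pool.

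Steps of this pathway with a member that rose in mutant ventricles were 3 in number: *smpd5* in the hydrolysis of sphingomyelin, *cers3a* in the making of ceramide and *cerk* in its phosphorylation. No member fell past the threshold of 0.05 on the adjusted p of edgeR's quasi-likelihood test. Of the 44 members, 3 were called (6.82%), against 3.34% of all genes tested. In the upward direction, the share was 2.13% of all genes, and in the downward direction 1.21%. At an unadjusted p under 0.05 there were 8 members higher, beside 11% of all genes, and 3 lower, beside 9.87%, which made 25% of the list against a background of 20.9%. By contrast, edgeR's likelihood ratio test and DESeq2 each called 4 members higher and 2 lower, 13.6% of the list. The likelihood ratio test called 8.19% of all genes (4.93% higher and 3.26% lower), and DESeq2 called 10.1% (5.6% higher and 4.45% lower).

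Across the list, 25 members had a higher fitted level in mutants and 19 a lower one, where 48.7% of all genes were fitted higher. The median log2 fold change of the 44 members was 0.16, beside -0.014 for all genes, and over the 32 members with a mean of at least 50 counts it was 0.020. Genotypes did not overlap for 4 members on the higher side (6.07% of all genes) and 2 on the lower side (4.46%), which made 13.6% of members against 10.5% of all genes. For 22 members (50%) the 95% interval of the fold change lay wholly within 2-fold in either direction, close to the 50.6% of all genes. These shares put the list as a whole near the background, and that holds for the share of members whose genotypes did not overlap.

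**Figure D1:**
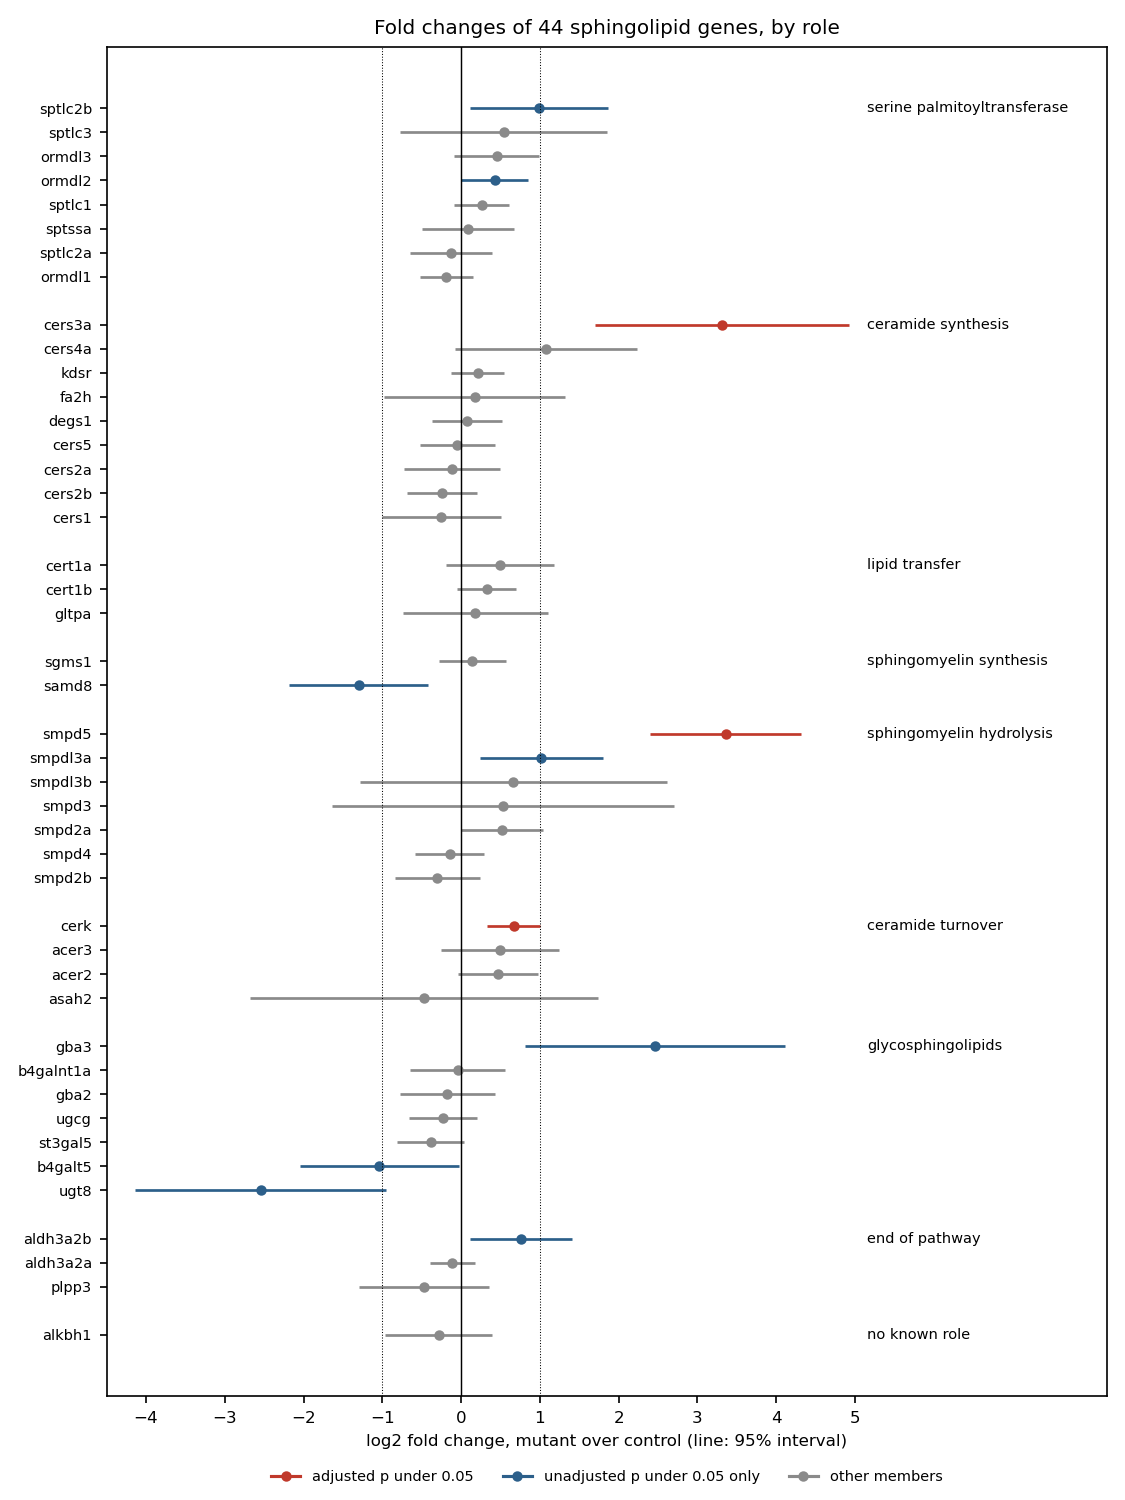
Log2 fold change of each of the 44 members (point, mutant over control) with its 95% interval (line), ordered by role in the pathway; dotted lines mark 2-fold. The red points, *smpd5*, *cers3a* and *cerk*, have an adjusted p under 0.05, and the intervals of most other members cross 0.

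Sphingomyelin hydrolysis held the member that moved furthest, *smpd5* (ENSDARG00000059811), which encodes a neutral sphingomyelinase associated with mitochondria in zebrafish and mouse. In control libraries 1 to 5, *smpd5* stood at 2.26, 0.594, 2.07, 3.99 and 3.94 CPM. In mutant libraries 6 to 9 it stood at 17.9, 28.8, 32.3 and 27.3 CPM. The genotypes were far apart, with 13 to 133 counts in controls and 511 to 918 in mutants. Mean expression of 2.57 ± 1.43 CPM (SD, n = 5) rose in mutants to 26.6 ± 6.16 CPM (SD, n = 4), which was 10.2-fold in the edgeR fit. The fitted log2 fold change was 3.36 ± 0.43 (SE; 95% interval 2.40 to 4.31), with an edgeR adjusted p of 0.00428, and it ranked 41 of 16575 genes by p. With each library left out in turn, its adjusted p stayed between 0.00106 and 0.0155.

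The other sphingomyelinases and the related phosphodiesterases grouped with them did not share this difference. The neutral sphingomyelinase copies *smpd2a* and *smpd2b* had log2 fold changes of 0.52 ± 0.24 and -0.30 ± 0.24, and *smpd4*, another neutral sphingomyelinase, had -0.15 ± 0.20. The 95% interval of *smpd4*, from -0.59 to 0.30, lay within 2-fold. The neutral sphingomyelinase *smpd3* was sparse, with 39, 4, 0 and 5 counts in mutants, and most of its mutant signal lay in library 6. Expression of *smpdl3a*, related in sequence to acid sphingomyelinase but active on nucleotides in mammals, stood at 1.39, 1.14, 1.33, 1.19 and 0.711 CPM in controls and at 3.61, 2.26, 2.31 and 1.21 CPM in mutants. Its groups overlapped at mutant library 9, and its log2 fold change was 1.02 ± 0.35 with an adjusted p of 0.137. The separate gene *smpdl3b*, a membrane-anchored relative, had a log2 fold change of 0.66 ± 0.88 and an adjusted p of 0.721.

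Summed over the 7 genes of sphingomyelin hydrolysis and related phosphodiesterases, expression was 15.8 ± 2.99 CPM in controls and 41.3 ± 4.37 CPM in mutants, or 2.62-fold. Without *smpd5* the sums were 11.5 to 16.1 CPM in controls and 11.4 to 19.1 CPM in mutants, which overlapped. The separation of this step therefore lay in *smpd5*.

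**Figure D2:**
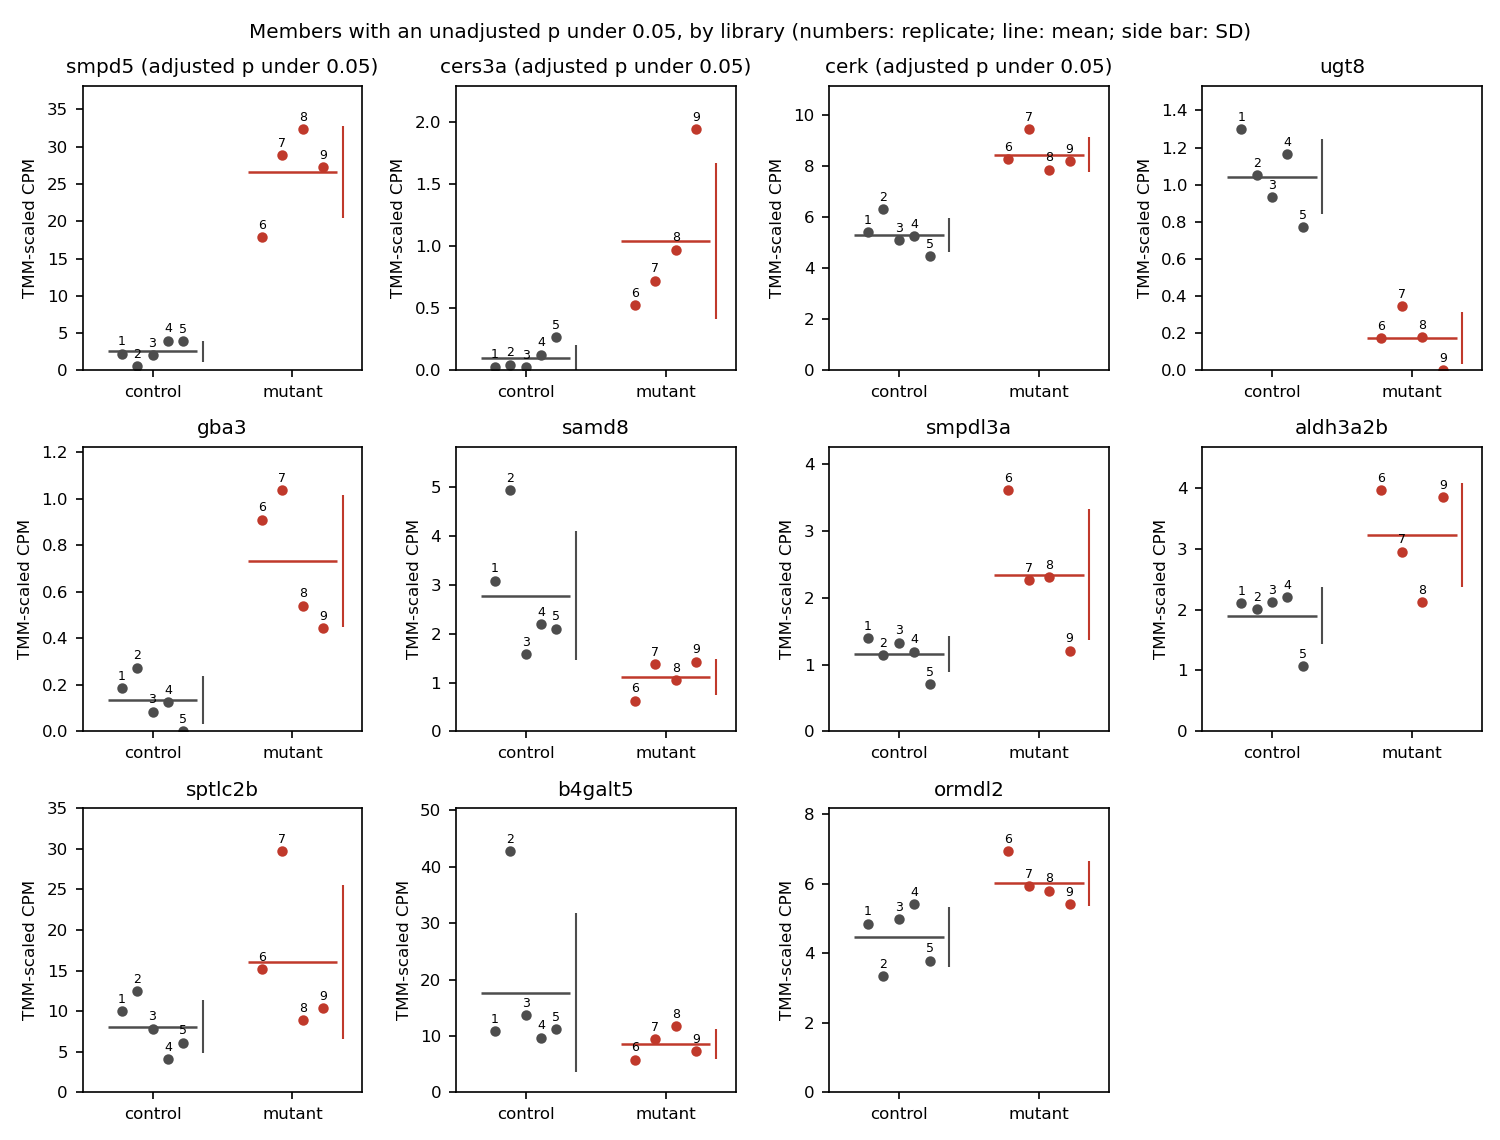
TMM-scaled CPM of the 11 members with an unadjusted p under 0.05, in control libraries 1 to 5 and mutant libraries 6 to 9; the horizontal line is the group mean and the side bar its SD. The genotypes are apart in *smpd5*, *cers3a*, *cerk*, *ugt8*, *gba3* and *samd8*, and mutant library 7 of *sptlc2b* (29.7 CPM) and control library 2 of *b4galt5* (42.7 CPM) lie far from their groups.

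Ceramide synthesis held the called member with the fewest counts. The gene *cers3a* (ENSDARG00000078541) is a copy of the ceramide synthase that makes ceramides with very long acyl chains in mammalian skin and testis. Control libraries 1 to 5 held 1, 1, 1, 4 and 9 counts of *cers3a*, and mutant libraries 6 to 9 held 15, 23, 27 and 61. The groups did not overlap, control library 5 came nearest to mutant library 6, and mutant library 9 carried the most. Expression rose from 0.0995 ± 0.102 to 1.04 ± 0.627 CPM, a log2 fold change of 3.31 ± 0.73 (95% interval 1.70 to 4.92) with an adjusted p of 0.0388. This call was lost in 8 of the 9 fits that left out a library, in which its adjusted p reached 0.104, and was kept at 0.0291 without control 5.

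Of the other 8 genes in this step none passed edgeR's quasi-likelihood test, the likelihood ratio test or DESeq2, and none had an unadjusted p under 0.05. The desaturase *degs1*, which introduces the double bond of ceramide, drew the most reads of the step, 20.7 to 35.8 CPM in controls and 22.96 to 36.2 CPM in mutants. Its log2 fold change of 0.074 ± 0.20 (adjusted p = 0.875) was smaller than the spread between libraries, and its 95% interval of -0.37 to 0.52 lay within 2-fold. The ceramide synthases *cers1*, *cers2a*, *cers2b* and *cers5* had log2 fold changes between -0.25 and -0.047, and *cers4a* had 1.08 ± 0.52. Values of *kdsr*, which reduces the first base of the pathway, and of *fa2h*, which hydroxylates the fatty acid, were 0.21 ± 0.15 and 0.17 ± 0.52. Summed over the 9 genes, the step ranged from 57.3 to 89.3 CPM in controls and from 65.2 to 76.1 CPM in mutants.

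Ceramide kinase, *cerk* (ENSDARG00000069169), makes ceramide 1-phosphate and was the third member to rise. Its levels in control libraries 1 to 5 were 5.41, 6.31, 5.09, 5.25 and 4.47 CPM. In mutant libraries 6 to 9 they were 8.26, 9.42, 7.85 and 8.17 CPM. The groups did not overlap, and *cerk* had a narrow spread in each. The mean rose from 5.31 ± 0.663 to 8.43 ± 0.687 CPM, or 1.59-fold, with a log2 fold change of 0.67 ± 0.15 (95% interval 0.33 to 1.01) and an adjusted p of 0.0442. This call too was lost in 8 of the 9 fits with a library left out, where the adjusted p reached 0.117, and was kept at 0.0381 without control 2.

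Ceramidases, which split ceramide into base and fatty acid, passed in neither direction. The Golgi ceramidase *acer2* stood between 5.19 and 7.91 CPM in controls and between 6.51 and 12.5 CPM in mutants, with a log2 fold change of 0.47 ± 0.23 and an adjusted p of 0.278. The ceramidase *acer3* had a value of 0.49 ± 0.34. The neutral ceramidase *asah2* was uneven among controls, with 42, 38, 14, 0 and 4 counts. Its log2 fold change of -0.48 ± 0.997 had an interval too wide to show a difference at this depth.

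Serine palmitoyltransferase, which commits serine to the pathway, and its regulators had no called member among 8 genes, by edgeR's quasi-likelihood or likelihood ratio test or by DESeq2. The catalytic subunit gene *sptlc2b* (ENSDARG00000074287) stood at 9.98, 12.4, 7.87, 4.12 and 6.13 CPM in controls and at 15.2, 29.7, 8.86 and 10.4 CPM in mutants. Its groups overlapped, and mutant library 7 stood far above the rest. The log2 fold change of *sptlc2b* was 0.99 ± 0.40 with an adjusted p of 0.189, and it was 0.50 without mutant 7. The other copy, *sptlc2a* (ENSDARG00000018976), had a value of -0.13 ± 0.23 and an adjusted p of 0.806.

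The Ormdl proteins restrain serine palmitoyltransferase when ceramide is plentiful, and none of their 3 genes passed the test. The most highly read of them, *ormdl1*, was at 25.2 to 43.0 CPM in controls and 30.2 to 33.1 CPM in mutants, with a log2 fold change of -0.19 ± 0.15 and an adjusted p of 0.526. The gene *ormdl2* stood at 4.85, 3.34, 4.98, 5.41 and 3.79 CPM in controls and at 6.93, 5.94, 5.80 and 5.41 CPM in mutants. These groups met at 5.41 CPM, and the log2 fold change was 0.43 ± 0.19 with an adjusted p of 0.236. For *ormdl3* it was 0.45 ± 0.24, with an adjusted p of 0.316. The subunits *sptlc1*, *sptssa* and *sptlc3* had values of 0.26 ± 0.16, 0.093 ± 0.26 and 0.54 ± 0.59.

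Ceramide travels from the endoplasmic reticulum to the Golgi on the transfer protein Cert1, where sphingomyelin synthase acts on it. The copies *cert1a* and *cert1b* had log2 fold changes of 0.49 ± 0.31 and 0.33 ± 0.17, and *gltpa*, a glycolipid transfer protein, had 0.18 ± 0.42. Of these, *cert1b* drew the most reads, at 11.7 to 20.5 CPM in controls and 19.2 to 20.9 CPM in mutants, and its adjusted p was 0.298. The summed level of the 3 transfer genes was 14.3 to 25.6 CPM in controls and 23.5 to 26.0 CPM in mutants, so that control library 4 lay among the mutants.

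The sphingomyelin synthase gene *sgms1* differed by less than its spread, with 9.57 to 18.6 CPM in controls, 14.6 to 18.9 CPM in mutants, a log2 fold change of 0.14 ± 0.19 and an adjusted p of 0.717. Its relative *samd8* (ENSDARG00000074663) makes ceramide phosphoethanolamine. Levels of *samd8* were 3.09, 4.94, 1.58, 2.20 and 2.10 CPM in controls and 0.630, 1.38, 1.04 and 1.43 CPM in mutants. Every mutant library was below every control library, with a narrow gap between control 3 and mutant 9. The log2 fold change was -1.30 ± 0.40, which missed the threshold in the quasi-likelihood test (adjusted p = 0.103) and passed it in the likelihood ratio test (0.0405) and DESeq2 (0.0251).

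In the glycosphingolipid branch none of the 7 members was called by the quasi-likelihood test. Of their fitted changes 6 lay below 0, several of them by less than their standard error or little more. The gene *ugt8* (ENSDARG00000037455) encodes the synthase of galactosylceramide, a lipid of myelin. Its counts were 42, 23, 33, 37 and 26 in controls and 5, 11, 5 and 0 in mutants. The groups did not overlap, and mutant library 9 held no count at all. Expression was 1.04 ± 0.204 CPM in controls and 0.175 ± 0.141 CPM in mutants, with a log2 fold change of -2.55 ± 0.72 (95% interval -4.14 to -0.95). The quasi-likelihood adjusted p was 0.0849, that of the likelihood ratio test 0.00124 and that of DESeq2 0.00128. By symbol in the annotation of another assembly, *ugt8* was the only member on the chromosome of *vegfc*, and 0 of the 44 lay on that of *vegfd*. Linkage of *ugt8* to the selected *vegfc* allele and an effect of the genotype cannot be told apart. The 6 markers of myelin and Schwann cells summed to 37.4 to 58.2 CPM in controls and 34.4 to 48.6 CPM in mutants. Most of that sum was *pmp22a*, with means of 34.6 CPM in controls and 31.0 CPM in mutants. Of the 6 markers, 3 were fitted higher and 3 lower, and 0 were called. The part of those cells in the *ugt8* values was not tested.

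Glucosylceramide, the other entry to this branch, is made by *ugcg*, whose log2 fold change was -0.23 ± 0.20. Its galactosylation to lactosylceramide is the work of *b4galt5* (ENSDARG00000010301), which stood at 10.8, 42.7, 13.7, 9.68 and 11.3 CPM in controls and at 5.81, 9.42, 11.8 and 7.28 CPM in mutants. Control library 2 was far above the rest, and the other groups overlapped. The log2 fold change of *b4galt5* was -1.04 ± 0.46 with an adjusted p of 0.226, and it was -0.41 without control 2. Another identifier carries the symbol *b4galt5* and is not analysed here, and the division of reads between such copies is uncertain.

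Gangliosides follow from lactosylceramide. The GM3 synthase gene *st3gal5* had a log2 fold change of -0.39 ± 0.19. The GM2 synthase gene *b4galnt1a* drew the most reads of the branch, 15.3 to 45.8 CPM in controls and 31.5 to 43.6 CPM in mutants, with a value of -0.044 ± 0.27 and an adjusted p of 0.948. Of the glucosidases that act outside the lysosome, *gba2*, which hydrolyses glucosylceramide at membranes, had -0.17 ± 0.27. The cytosolic beta-glucosidase gene *gba3* (ENSDARG00000031150) held 6, 6, 3, 4 and 0 counts in controls and 26, 33, 15 and 14 in mutants. Its groups did not overlap, and it was the exception in direction within the branch. Its log2 fold change was 2.46 ± 0.75, with a quasi-likelihood adjusted p of 0.100, and it passed in the likelihood ratio test (0.00492) and in DESeq2 (0.0153).

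**Figure D3:**
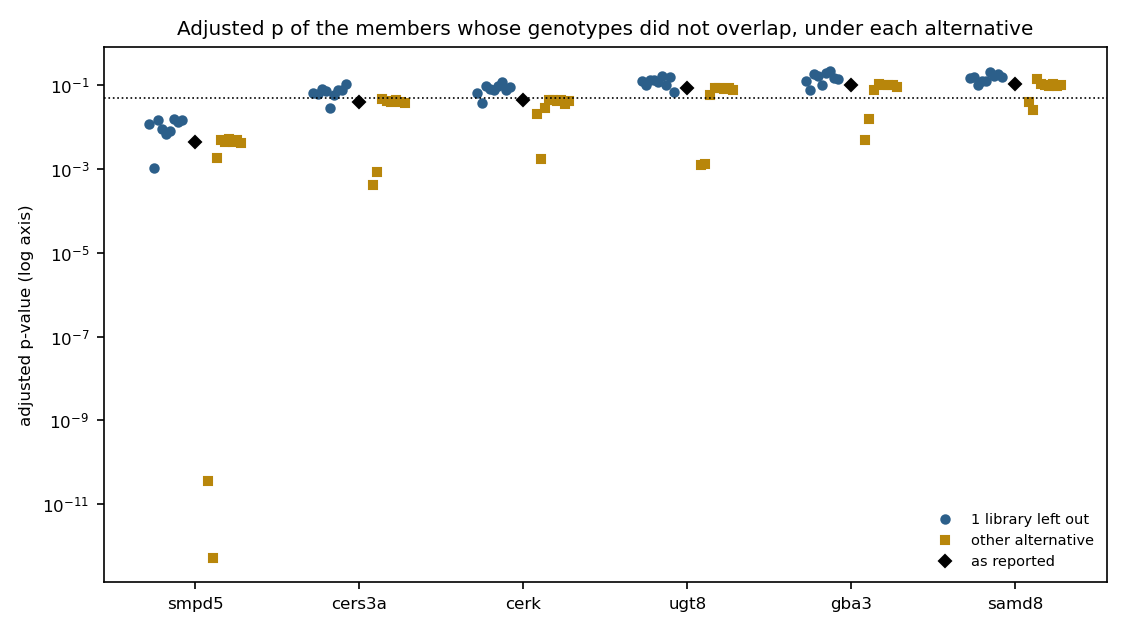
Adjusted p (log axis) of the 6 members whose genotypes did not overlap, as reported (black), with a library left out (blue) and under the other alternatives (ochre); the dotted line is 0.05. Only *smpd5* stays under the line throughout, and the lowest ochre points belong to DESeq2 and the likelihood ratio test.

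Sphingolipid breakdown ends in lipid phosphates and fatty aldehydes. The lipid phosphate phosphatase *plpp3*, which also acts on other lipid phosphates, stood at 78.7, 185.7, 58.6, 45.8 and 61.8 CPM in controls and at 52.5 to 80.03 CPM in mutants. Control library 2 again stood alone, and the log2 fold change of -0.47 ± 0.37 (adjusted p = 0.515) was 0.021 without it. Expression of *aldh3a2b*, a copy of the fatty aldehyde dehydrogenase that clears the aldehyde of the long-chain base, was 1.90 ± 0.471 CPM in controls and 3.22 ± 0.857 CPM in mutants. Its log2 fold change was 0.76 ± 0.29 with an adjusted p of 0.174, and that of its copy *aldh3a2a* was -0.11 ± 0.13 with an adjusted p of 0.681. The list also held *alkbh1*, a nucleic acid demethylase with no sphingolipid role known here, at -0.29 ± 0.31.

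Where the list held gene copies, the balance between them was measured within each library as a log2 ratio of counts, which no scaling affects. Of the 6 pairs, none passed the threshold after Benjamini-Hochberg adjustment. The pair *smpd2a* and *smpd2b* came closest, with a log2 ratio of -0.50 ± 0.17 in controls and 0.32 ± 0.24 in mutants. Its ratios did not overlap between genotypes (two-sided exact permutation test, p = 0.0159, with an adjusted p of 0.0952). This p is the smallest that 5 against 4 libraries allow. A pair that reached it alone could not pass the threshold after adjustment over 6 pairs, however far apart its ratios. The adjusted result for *smpd2a* and *smpd2b* therefore does not show that their balance was unchanged. For *aldh3a2a* over *aldh3a2b* the difference was -0.87 (exact permutation p = 0.0635) and for *sptlc2a* over *sptlc2b* it was -1.02 (p = 0.190 by the same test). Ratios for the copies of *cert1* and *cers2* differed by 0.22 and 0.067 (exact permutation p = 0.460 and 0.730). The separate genes *smpdl3a* and *smpdl3b*, paired by their symbols alone, differed by 0.51 (exact permutation p = 0.683).

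**Figure D4:**
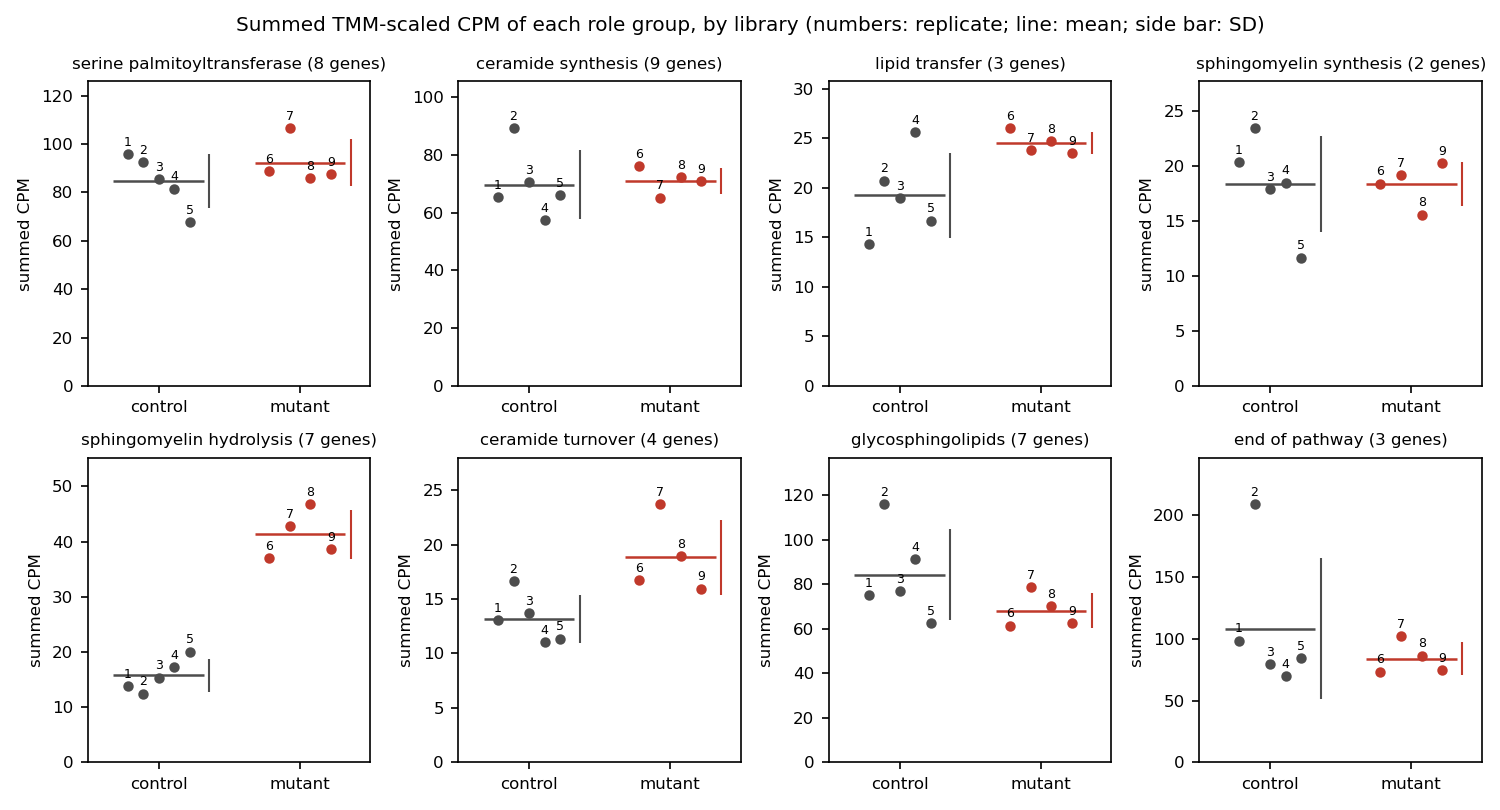
Summed TMM-scaled CPM of the members in each role group, by control library 1 to 5 and mutant library 6 to 9; the horizontal line is the mean and the side bar the SD. Genotypes are apart only for sphingomyelin hydrolysis with its related phosphodiesterases (12.4 to 20.1 against 37.0 to 46.7 CPM). Control library 2 is the highest control in ceramide synthesis, sphingomyelin synthesis, ceramide turnover, glycosphingolipids and the end of the pathway.

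Summed levels of the other steps overlapped between genotypes. Serine palmitoyltransferase genes summed to 67.8 to 95.9 CPM in controls and 85.9 to 106.6 CPM in mutants, and glycosphingolipid genes to 62.5 to 115.8 and 61.3 to 78.7 CPM. All 44 members together summed to 341.9 to 580.6 CPM in controls and 394.7 to 462.8 CPM in mutants. The members spanned a mean of 10 to 2188 counts, and 4 of them had a library with 0 counts. Among the 32 with a mean of at least 50 counts, the median coefficient of variation was 24.0% in controls and 19.2% in mutants. Control library 2 was the highest of the controls for 17 members (38.6%), against 25.1% of all genes, and it had the smallest total of the 9 libraries.

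The neighbouring steps of the pathway give the members their setting. Of 21 genes for lysosomal sphingolipid hydrolases and their activators, 6 were called, each higher in mutants, where 2.13% of all genes were called higher. Summed levels were 458.0 to 537.3 CPM in controls and 645.9 to 903.9 CPM in mutants. Much of the sum was the activator gene *psap*, which was not called (adjusted p = 0.179), and without it the sums were 200.7 to 235.2 and 345.5 to 465.9 CPM. The called genes included *hexb* and *hexa*, subunits of the hexosaminidase that degrades GM2, with log2 fold changes of 1.75 (adjusted p = 0.000404) and 1.95 (0.00923). The acid ceramidase gene *asah1* (ENSDARG00000034817) rose by 1.23 on the log2 scale (0.0252), while the other identifier with that symbol (ENSDARG00000037091) had 0.55 and an adjusted p of 0.204. Of 10 genes for the handling of sphingosine phosphate, 1 was called: the sphingosine kinase gene *sphk2* fell, with a log2 fold change of -0.72 and an adjusted p of 0.0482, where 1.21% of all genes were called lower. In that list the likelihood ratio test called 2 genes lower, and DESeq2 called 1 higher and 2 lower. Of the 10 genes, 3 were fitted higher and 7 lower, yet their sums were 118.3 to 136.3 CPM in controls and 148.4 to 178.6 CPM in mutants. The receptor gene *s1pr5a* stood at 35.1 ± 17.7 CPM in controls and 79.5 ± 14.5 CPM in mutants, with an edgeR adjusted p of 0.134. Of 11 genes for elongation of very long chain acyl-CoA, 0 were called by the quasi-likelihood test, the likelihood ratio test or DESeq2, and 1 had an unadjusted p under 0.05.

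Markers of cell types were read beside these values. Summed cardiomyocyte markers were 111961 to 129423 CPM in controls and 92936 to 102515 CPM in mutants. These sums did not overlap and were lower in mutants. The largest single part of them was *myh7*, with means of 48468 CPM in controls and 42992 CPM in mutants, and its groups overlapped. Of the 12 cardiomyocyte markers, 9 were fitted lower and 3 higher, with a median log2 fold change of -0.31. By the quasi-likelihood or the likelihood ratio test 0 were called. At an unadjusted p under 0.05 there were 2 higher and 4 lower. Among the higher ones, a *tnnt2* identifier (ENSDARG00000100694) was sparse, with means of 0.284 CPM in controls and 1.79 CPM in mutants. The other, a *myh6* identifier (ENSDARG00000079564), was well read, at 295.3 ± 58.9 CPM in controls and 427.3 ± 33.3 CPM in mutants. Its groups did not overlap, and its edgeR adjusted p was 0.0811. It also belonged to a list of 7 atrial markers, of which 3 were fitted higher, 4 lower and 0 called. Of the cardiomyocyte markers, DESeq2 called 2 higher and 2 lower. Endothelial and endocardial markers (8 genes) summed to 746.9 to 1012 CPM in controls and 1075 to 1288 CPM in mutants, with 1 called, *vwf*, and without *vwf* the sums overlapped at 664.4 to 870.5 and 797.1 to 972.6 CPM. All 7 markers of proliferating cells were fitted higher, with a median log2 fold change of 1.29, an unadjusted p under 0.05 for 5 and a call for *mcm5*, and their sums were 17.6 to 34.6 CPM in controls and 31.6 to 67.3 CPM in mutants. Of 7 smooth muscle markers, *myh11* (ENSDARG00000009782) was called lower and *tagln* (ENSDARG00000045408) higher. At an unadjusted p under 0.05, 1 of the 7 was higher and 4 were lower, with a median log2 fold change of -1.02. Of 11 fibroblast and epicardial markers, 5 were fitted higher and 6 lower, with a median log2 fold change of -0.18, and *tbx18* was called lower. At an unadjusted p under 0.05, 1 of the 11 was higher and 2 were lower. The sums of both lists overlapped, at 156.3 to 351.7 and 157.9 to 300.0 CPM and at 400.9 to 767.4 and 333.1 to 545.0 CPM. The 7 immediate early and handling genes summed to 26.5 to 309.3 CPM in controls and 267.4 to 1013 CPM in mutants, with *hsp70.1* called higher. That gene was a small part of the sums, with means of 2.07 CPM in controls and 7.82 CPM in mutants. The highest mutant mean was that of *atf3*, at 39.3 ± 45.8 CPM in controls and 305.3 ± 258.9 CPM in mutants. Its groups overlapped, and its edgeR adjusted p was 0.0928. Of these genes 6 were fitted higher and 1 lower, with a median log2 fold change of 1.14. At an unadjusted p under 0.05 there were 4 higher and 0 lower. Leukocyte markers (10 genes) gave overlapping sums of 234.9 to 870.9 and 230.5 to 720.0 CPM, and epithelial markers (4 genes), the cell type in which mammalian *cers3* is best known, gave 61.1 to 161.8 and 102.8 to 194.8 CPM. The part of these cells in the member values was not tested.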

How the data were processed

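The deposited values were raw counts per Ensembl gene, which the authors made from stranded poly(A) libraries: paired reads were trimmed with Skewer 0.2.2, aligned to GRCz11 (Ensembl 95) with STAR 2.5.2a and counted on the annotated strand with featureCounts 1.5.0 at a mapping quality of at least 20. The authors kept genes with a mean of at least 10 reads per sample, so rarer genes are not analysed here, and near-identical copies can lose counts to the mapping filter. Symbols came from a table of gene names (15812 identifiers matched). The names *sptlc2a*, *sptlc2b*, *cers2a*, *cers2b*, *cers3a*, *cert1a* and *cert1b* were taken from gene labels in the study's supplementary table, since the name table drops the final letter; both *cert1* identifiers met the rule. The symbols *sptssb*, *cers3b*, *cers4b*, *cers6*, *degs2*, *gltpb*, *sgms2a*, *sgms2b*, *enpp7.1*, *acer1* and *b4galt6* are not analysed here. An annotation of another assembly (GRCz12tu) served to ask which members share a chromosome with *vegfc* or *vegfd*, and its coordinates are not used.

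Counts were fitted in edgeR 4.0.16 under R 4.3.3, with TMM scaling and the two-sided quasi-likelihood F test in its legacy form, over all 16575 genes and with no covariate or further filter, since the labels name no batch. P-values were adjusted by Benjamini-Hochberg over all genes, with a threshold of 0.05. Standard errors were the size of the log2 fold change over the square root of F, and 95% intervals were built from them. No test was made over the members as a list, and no adjustment over the list alone. Ratios of gene copies used counts plus 0.5 and a two-sided exact permutation test over libraries in SciPy 1.17.1, adjusted over 6 pairs. Pairs were members that share a symbol or differ only in a final a or b, which also paired the separate genes *smpdl3a* and *smpdl3b*. The procedure was tested on simulated data. There the quasi-likelihood test called 25% of genes changed 2-fold and 88% of those changed 4-fold. These genes had a mean of at least 50 counts, and 0.0427% of unchanged genes were called. A member that was not called is therefore not shown to be unchanged.

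Members named in the text were those called, those whose genotypes did not overlap and those with an unadjusted p under 0.05. Also named were the member of highest CPM in each role group and the paired member of any of these. Other members are given by value or range as they illustrate a step, chosen after their values were seen, as were the sums without *psap* or *vwf*. The members and lists were chosen with earlier results of these data known. Alternatives were DESeq2 1.42.0, edgeR's likelihood ratio test, a robust fit, limma-voom (limma 3.58.1) with weights for library quality, RLE scaling or library size alone, omission of mitochondrial genes, a mean of at least 50 counts, filterByExpr, a threshold of 0.01, a pseudocount of 1 in ratios, and each library left out in turn.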

Additional observations from a re-analysis of the deposited data

Results flagged for a closer look

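Within the groups of 4 and 5 libraries, the highest or lowest library of a named member was compared with the rest by Dixon's ratio. Of 42 groups, 7 had a library far from the others for the range of its group, where chance gives about 1 in 20 (2.1 groups). Control library 2 was far above the other controls in *b4galt5* (42.7 CPM) and *plpp3* (185.7 CPM). Control library 5 was far below them in *sgms1* (9.57 CPM), *b4galnt1a* (15.3 CPM) and *aldh3a2b* (1.07 CPM). Mutant library 7 was far above the other mutants in *b4galnt1a* (43.6 CPM). Mutant library 6 was flagged in *cert1b* at 20.9 CPM, although the mutants there lay within a narrow range of 19.2 to 20.9 CPM. None of the 3 called members was among them.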

How the results depend on the processing

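No paired analysis was possible because the genotypes share no replicate number (controls 1 to 5, mutants 6 to 9). With each library left out, members called higher numbered 1 to 2, and members called lower stayed at 0; *smpd5* was called in each of these fits. All genes called ranged from 136 to 322 higher and from 60 to 170 lower. At a threshold of 0.01, 1 member was called higher, with 68 genes higher and 19 lower. The likelihood ratio test called 2 members lower (817 genes higher, 540 lower), as did DESeq2 with 2 (929 and 737). Members without overlap numbered 4 to 7 higher and 2 to 3 lower with a library left out. The shares over all genes are not given for these fits, and a gap is easier to reach with fewer libraries. These counts are therefore not read against a background. The members' median log2 fold change was 0.089 by limma-voom and 0.020 at a mean of at least 50 counts, where *cers3a* was not tested, and 0.053 to 0.23 with a library left out. Scaling moved the median of all genes by under 0.1. Pair ratios with a library left out ranged from -1.14 to -0.66 for *aldh3a2* (exact permutation p = 0.0357 without mutant 8). They ranged from -1.33 to -0.68 for *sptlc2*, -0.064 to 0.24 for *cers2* and -0.28 to 1.38 for *smpdl3a* over *smpdl3b*. For *smpd2* the range was 0.76 to 0.94, and for *cert1* it was 0.02 to 0.33. Signs turned in *sptlc2a* (-0.24 to 0.011), *degs1* (-0.083 to 0.21), *smpdl3b* (-0.083 to 1.04), *b4galnt1a* (-0.23 to 0.056) and *plpp3* (-0.63 to 0.021) with a library left out, and in *smpdl3b* by limma-voom (-0.016). The 21 named members kept their direction and their side of the threshold in 165 of 189 recomputations with a library left out and in 178 of 185 others. The cause of these changes was not tested. Among members with no overlap between genotypes, *cers3a*, *gba3* and *ugt8* are the most limited by depth, with 61 counts or fewer in every library.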
